A study of Homo sapiens with 6 samples.

Results

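The genes described are 10 that carry thiol and redox defence in human cells: TXN, TXNRD1, PRDX1, SRXN1, GCLC, GCLM, SLC7A11, GPX4, NQO1 and HMOX1. They were taken by symbol, each as the probeset that names only that gene, and where several did, the one with the highest mean over the arrays. They are 10 of 18605 genes with a probeset of their own. RNA came from L1236, an established Hodgkin lymphoma cell line, and each of 6 groups was measured on 1 array. Cells received leukotriene D4 (LTD4, 100 nM, diluted in methanol) or the vehicle alone (0.1% methanol) for 8 h or 1 h, both in medium without serum. Another pair of arrays came from untreated cells at 8 h and at 1 h. The labels do not say how the untreated cells were handled, or whether their medium held serum. LTD4 is a cysteinyl leukotriene, an inflammatory lipid that acts through receptors at the cell surface. The comparison of LTD4 with methanol addresses LTD4 over its vehicle, although the final share of methanol in the LTD4 cultures is not stated. The comparison of methanol with untreated addresses the vehicle and whatever handling went with it.

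NRF2 (NFE2L2) is a transcription factor that KEAP1 holds at a low level by sending it for degradation. Oxidants and electrophiles disturb KEAP1, and NRF2 then builds up, pairs with small MAF proteins and drives genes through antioxidant response elements. These genes feed a pair of thiol systems, glutathione, made from cysteine and glutamate, and thioredoxin, which reduces peroxiredoxins. Lipid peroxidation and its repair by glutathione are central to ferroptosis.

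Promoters of 7 of the 10 genes were found in the RefSeq promoter table of GRCh38.p14, each running 250 bases before to 50 after the gene's start. They were searched on both strands for TGACNNNGC, a form of the antioxidant response element core. TXNRD1 held 2 matches and GCLM held 1, while the other 5 promoters held none. Of 27305 promoters, the first listed for each gene in the table, 3702 held the motif, or 13.6%. The 7 were also the first listed for their genes, and any other starts were not searched. The TXNRD1 window is chr12:104215529-104215828 on the plus strand, and the GCLM window is chr1:93909381-93909680 on the minus strand. Both are shown 5′ to 3′ on the gene's strand because they hold the motif, and capitals mark it or its reverse complement.
TXNRD1: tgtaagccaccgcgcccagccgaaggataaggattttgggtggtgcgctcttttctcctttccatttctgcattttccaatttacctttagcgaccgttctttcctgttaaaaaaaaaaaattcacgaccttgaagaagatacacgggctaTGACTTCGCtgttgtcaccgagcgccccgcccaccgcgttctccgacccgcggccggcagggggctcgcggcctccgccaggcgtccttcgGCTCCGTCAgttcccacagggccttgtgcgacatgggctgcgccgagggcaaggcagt
GCLM: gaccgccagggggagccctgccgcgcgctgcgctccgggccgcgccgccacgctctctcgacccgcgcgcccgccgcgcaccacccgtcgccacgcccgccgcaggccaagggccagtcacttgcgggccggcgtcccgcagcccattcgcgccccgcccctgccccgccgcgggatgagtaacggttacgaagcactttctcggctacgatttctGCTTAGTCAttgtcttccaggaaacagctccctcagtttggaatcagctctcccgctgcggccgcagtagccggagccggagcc
In TXNRD1 the matches begin at positions -99 (TGACTTCGC, the gene's strand) and -8 (GCTCCGTCA, the other strand) relative to the start. In GCLM the match begins at -34 (GCTTAGTCA, the other strand). None of the 3 matches overlaps the letters TGANTCA, the AP-1 site. A match describes the letters and does not show binding, which was not measured.

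The values are linear intensities as the authors deposited them, and differences are given as log2(intensity + 16). A gene was tested when its highest intensity on the 6 arrays reached 1263, or 10.32 on the log2 scale, the 95th percentile of 45 antigenomic probesets, controls made to have no target in the human genome. The filter left 3584 genes, among them TXN, TXNRD1, PRDX1 and GPX4, and the other 6 genes read below it on all 6 arrays. The 6 were therefore fitted together with all 18605 genes, and their levels stand within the range of control probesets. At the array medians, intensity was 209.5 with LTD4, 223 with methanol and 154 in untreated cells at 8 h, against 217 with LTD4, 228 with methanol and 188 in untreated cells at 1 h. Over all 18605 genes methanol minus untreated had a median of 0.36 at 8 h and 0.08 at 1 h, but over the brighter, tested genes the median was 0.27 at 8 h and -0.21 at 1 h, so that dim and bright genes shifted differently. The comparisons of the 10 genes with untreated cells were repeated after centring arrays on their median over all genes and after quantile normalization. Centring subtracts 1 value from all genes of an array, so it does not remove a shift that differs between dim and bright genes. Of 8 Hodgkin cell markers, 5 (CD40, IRF4, FSCN1, CD274 and CCL17) reached the limit, while CD30 (TNFRSF8), a defining marker, read 496 to 872, below it. Of 5 B cell markers on the array only PAX5 reached the limit, and none of the T cell, monocyte, granulocyte or fibroblast markers did, with highest intensities of 221, 387, 513 and 336. Summed marker intensities were lowest in the untreated 8 h array for those 4 lists, the array that was also dimmest by its median, and their part in the results was not tested.

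Glutathione synthesis begins with glutamate-cysteine ligase, whose catalytic subunit is GCLC and whose modifier subunit is GCLM. GCLM read 628 with LTD4, 699 with methanol and 715 in untreated cells at 8 h, and 478 with LTD4, 421 with methanol and 708 in untreated cells at 1 h. The untreated arrays were the highest at both times, and the gap was much wider at 1 h, where methanol stood at -0.73 and LTD4 at -0.55 against untreated. GCLC read 701 with LTD4, 819.7 with methanol and 723 in untreated cells at 8 h, and 624 with LTD4, 558 with methanol and 805 in untreated cells at 1 h. At 1 h the untreated array was again the highest, but at 8 h the methanol array was. Both subunits therefore had their lowest value of the series with methanol at 1 h. SLC7A11, the exchanger that brings in cystine for glutathione, read 76.4 with LTD4, 69.8 with methanol and 58.0 in untreated cells at 8 h, and 77.5 with LTD4, 85.8 with methanol and 82.6 in untreated cells at 1 h. It was the dimmest of the 10 genes against the controls, with 24 of the 45 antigenomic probesets below its mean, against 33 below GCLM and 35 below GCLC.

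GPX4 uses glutathione to reduce lipid hydroperoxides and is the enzyme whose loss triggers ferroptosis. It read 4013 with LTD4, 4207 with methanol and 2967 in untreated cells at 8 h, and 3536 with LTD4, 3311 with methanol and 3263 in untreated cells at 1 h. The untreated 8 h array was the lowest of the 6, and the LTD4 and methanol arrays at 8 h were the highest. All 45 antigenomic probesets lay below its mean.

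**Figure D1:**
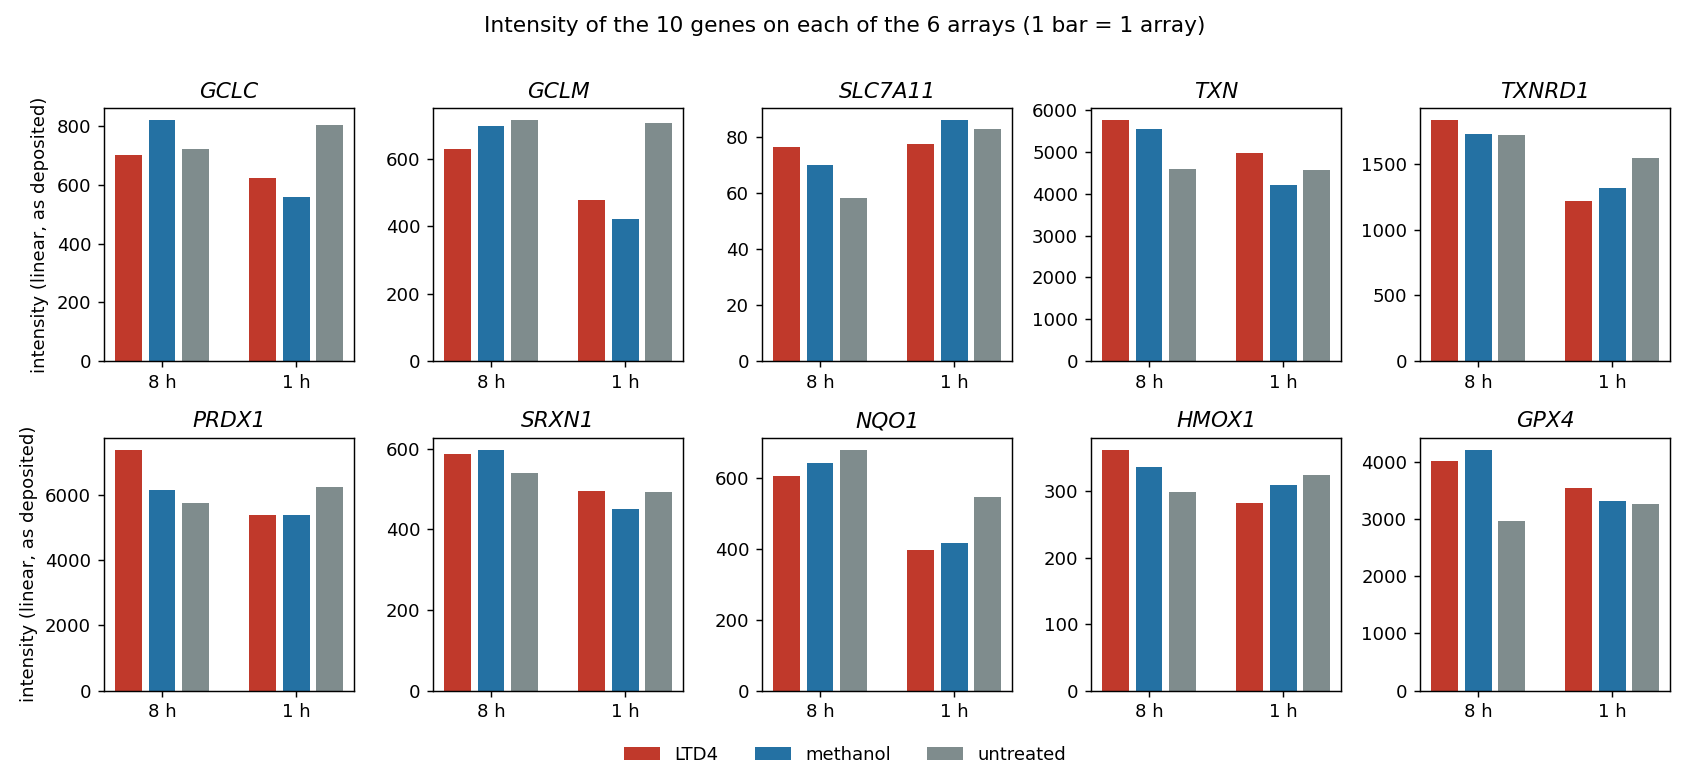
Intensity on a linear scale, as deposited, of each of the 10 genes on the 6 arrays, with 1 bar per array, LTD4, methanol and untreated from left to right at 8 h and then at 1 h. GCLM is highest on both untreated arrays (715 and 708), and TXNRD1 and NQO1 are higher on all 3 arrays at 8 h than on any at 1 h.

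Thioredoxin (TXN) passes electrons to peroxiredoxins and other oxidised proteins. It read 5755 with LTD4, 5559 with methanol and 4601 in untreated cells at 8 h, and 4978 with LTD4, 4207 with methanol and 4577 in untreated cells at 1 h. The untreated arrays were nearly equal, and the LTD4 array was the highest at each time. TXNRD1, the cytosolic selenoenzyme that reduces thioredoxin with NADPH, read 1831 with LTD4, 1727 with methanol and 1720.2 in untreated cells at 8 h, and 1222 with LTD4, 1314 with methanol and 1546 in untreated cells at 1 h. Its 3 arrays at 8 h lay above its 3 arrays at 1 h, and the spread among agents was wide at 1 h and narrow at 8 h. It was over the limit on 5 arrays, all but LTD4 at 1 h.

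PRDX1, an abundant peroxiredoxin that removes hydrogen peroxide, read 7375 with LTD4, 6148 with methanol and 5742 in untreated cells at 8 h, and 5368 with LTD4, 5383 with methanol and 6243 in untreated cells at 1 h. Its LTD4 8 h array stood highest, and at 1 h the LTD4 and methanol arrays were nearly equal and below the untreated one. SRXN1 (sulfiredoxin) repairs peroxiredoxins whose cysteine has been over-oxidised. It read 588 with LTD4, 597 with methanol and 540.2 in untreated cells at 8 h, and 496 with LTD4, 451 with methanol and 492 in untreated cells at 1 h. All 3 arrays at 8 h lay above all 3 at 1 h. A second, dimmer SRXN1 probeset, not used here, read 206 with LTD4, 151 with methanol and 144 in untreated cells at 8 h, and 216 with LTD4, 280.3 with methanol and 140.4 in untreated cells at 1 h, so that the probesets did not order the arrays alike.

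NQO1 and HMOX1 are classic NRF2 targets, a quinone reductase and the haem oxygenase that breaks haem down. NQO1 read 606 with LTD4, 642 with methanol and 679 in untreated cells at 8 h, and 396 with LTD4, 417 with methanol and 545 in untreated cells at 1 h. Every 8 h array lay above every 1 h array, and at each time LTD4 was lowest and untreated highest. HMOX1 read 362 with LTD4, 337 with methanol and 299 in untreated cells at 8 h, and 282 with LTD4, 310.1 with methanol and 324 in untreated cells at 1 h. The order of the agents at 8 h was the opposite of that at 1 h, over a narrow range.

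In the file's own coordinates, of a genome build that the sources do not name, the probesets lie as follows. TXN is on chromosome 9 (112045912 to 112058741, minus strand), TXNRD1 on 12 (103133711 to 103268192, plus) and PRDX1 on 1 (45749294 to 45760215, minus). SRXN1 is on 20 (575259 to 581890, minus), GCLC on 6 (53470098 to 53517790, minus) and GCLM on 1 (94123349 to 94147600, minus). SLC7A11 is on 4 (139304697 to 139382953, minus), GPX4 on 19 (1054936 to 1057787, plus), NQO1 on 16 (68300805 to 68318034, minus) and HMOX1 on 22 (34107057 to 34120200, plus). These spans cover exons and introns, which the gene-level values do not resolve.

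No gene of the 10 differed between LTD4 and methanol past the thresholds used. With 1 array a group there is no test within a time, and a gene counts as called when LTD4 is past 2-fold from both the methanol and the untreated array. None of the 4 tested genes was called at 8 h, where the background was 0% of tested genes higher and 0% lower. None was called at 1 h, where the background was 0.0837% higher and 0% lower. LTD4 minus methanol at 8 h ran between -0.22 for GCLC and 0.26 for PRDX1, with a median of 0.01 beside -0.08 over all 18605 genes, and 5 of the 10 differences were above 0. At 1 h it ran between -0.13 for HMOX1 and 0.24 for TXN, with a median of 0.05 beside 0.01 over all genes, and again 5 of 10 were above 0.

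To gain a spread, a limma model of agent and time was fitted over the 6 arrays, in which the times act as repeats for agents and the agents as repeats for time. LTD4 against methanol over both times was -0.01 for TXNRD1, 0.01 for GPX4, 0.13 for PRDX1 and 0.15 for TXN (SE 0.22 each, adjusted p = 1.00 in limma). None of the 4 passed, and the background was 0% higher and 0% lower. In the fit of all genes the 10 lay between -0.08 and 0.15, and none passed or had an unadjusted p under 0.05, with a background of 0.00537% higher and 0.0107% lower. An SE of 0.22 leaves room for changes of this size or larger, so these values do not show that LTD4 and methanol acted alike.

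As deposited, methanol against untreated was mostly below 0 at 1 h and mostly above 0 at 8 h, but the sign at 8 h turned with either rescaling of the arrays. At 1 h methanol minus untreated was -0.73 for GCLM, -0.52 for GCLC, -0.38 for NQO1 and -0.23 for TXNRD1, 8 of the 10 genes were below 0, and the median of the 10 was -0.17 beside 0.08 over all genes. At 8 h the same difference was -0.03 for GCLM, 0.18 for GCLC, -0.08 for NQO1 and 0.01 for TXNRD1, 8 of the 10 were above 0, and the median was 0.15 beside 0.36 over all genes. Relative to that median, 10 of the 10 genes were below at 1 h and 9 of 10 at 8 h. By their means over the arrays, all but SLC7A11 were brighter than the median gene, and dim and bright genes shifted differently. After centring, 9 of 10 were below 0 at 8 h (median -0.31) and 10 of 10 at 1 h (median -0.28). After quantile normalization, 7 of 10 were below 0 at 8 h (median -0.22) and 8 of 10 at 1 h (median -0.20), and 7 of 10 were below the all-gene median at each time. Against the median of tested genes at 1 h (-0.21), TXN (-0.12), SRXN1 (-0.12), HMOX1 (-0.06), GPX4 (0.02) and SLC7A11 (0.05) were above. PRDX1 stood at -0.21 and TXNRD1 at -0.23, and NQO1, GCLC and GCLM were lower. At 8 h only TXN (0.272) and GPX4 (0.50) were above the median of tested genes (0.267). Of the 10, only TXN, TXNRD1, PRDX1 and GPX4 were themselves tested.

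None of the 4 tested genes was past 2-fold between methanol and untreated, where the background was 2.15% higher and 0.167% lower at 8 h and 0.586% higher and 0.558% lower at 1 h. At 1.5-fold without the filter, GCLM was lower with methanol at 1 h, 1 of the 10 genes, with a background of 3.61% lower. After quantile normalization GCLM was again the only one (background 4.91%), and after centring GCLC was also past it (background 7.21%). In the fit over both times no tested gene passed, with a background of 1.9% higher and 0.363% lower. The 4 fell between -0.11 for TXNRD1 (adjusted p = 0.940 in limma) and 0.26 for GPX4 (adjusted p = 0.783).

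GCLM had the lowest value of the 10 in that comparison. In the fit of all 18605 genes, GCLM was -0.38 (SE 0.22, adjusted p = 0.279 in limma), and none of the 10 passed, with a background of 8.77% higher and 0.236% lower. With arrays centred on their median over all genes, GCLM was -0.67 (SE 0.17, adjusted p = 0.0486), the one of the 10 that passed, with a background of 1.38% higher and 1.76% lower. That centring moves the difference by the same amount for every gene, and the amount depends on the genes centred over. With quantile normalization GCLM was -0.59 (SE 0.15, adjusted p = 0.0942) and did not pass, with a background of 0.58% higher and 0.226% lower. The call after centring was also lost when any 1 of 5 arrays was left out, with adjusted p of 0.0692 without the untreated 8 h array, 0.0735 without either LTD4 array, 0.297 without the methanol 1 h array and 0.301 without the untreated 1 h array. It held without the methanol 8 h array (-0.81, adjusted p = 0.0319). Next to it stood NQO1 at -0.51 and GCLC at -0.46 after centring, neither of which passed (adjusted p = 0.0917 and 0.136).

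LTD4 against untreated used the same untreated arrays, so it is not independent of the comparison of methanol with untreated. At 8 h LTD4 minus untreated was -0.18 for GCLM, -0.16 for NQO1, 0.36 for PRDX1 and 0.43 for GPX4, with 7 of 10 genes above 0 and a median of 0.19 beside 0.28 over all genes. At 1 h it was -0.55 for GCLM, -0.45 for NQO1, -0.36 for GCLC and -0.34 for TXNRD1, with 7 of 10 below 0 and a median of -0.20 beside 0.05. Over tested genes the median of LTD4 minus untreated was 0.17 at 8 h and -0.10 at 1 h. The sign at 8 h turned with the scaling: 8 of 10 were below 0 after centring (median -0.14) and 7 of 10 after quantile normalization (median -0.09), and at 1 h it was 8 of 10 below 0 with either (median -0.30 each). No tested gene passed the fit over both times, with a background of 2.32% higher and 0.446% lower. GPX4 was 0.27 (adjusted p = 0.713 in limma) and TXN 0.22 (adjusted p = 0.799). In the fit of all genes GCLM was -0.37 (adjusted p = 0.375) and NQO1 -0.30 (adjusted p = 0.477), and none of the 10 passed, with a background of 4.72% higher and 0.226% lower. After centring GCLM was -0.58 (adjusted p = 0.0889) and NQO1 -0.52 (adjusted p = 0.109), and again none passed, with a background of 0.951% higher and 0.795% lower. After quantile normalization GCLM was -0.50 (adjusted p = 0.146) and NQO1 -0.46 (adjusted p = 0.152), and none passed, with a background of 0.247% higher and 0.107% lower. With the methanol 1 h or the methanol 8 h array left out, the centred GCLM value passed, but it was unchanged at -0.58. Neither methanol array enters that difference, and only the spread of the fit changed.

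**Figure D2:**
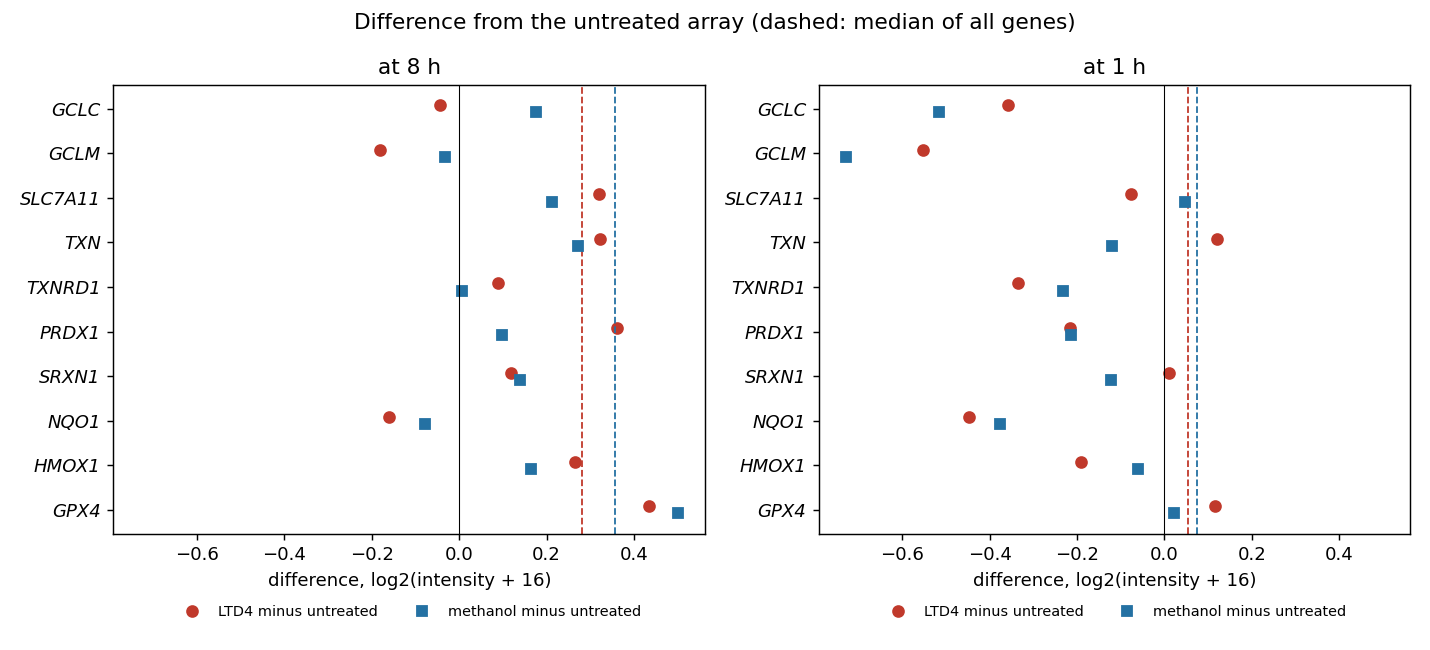
LTD4 minus untreated (circles) and methanol minus untreated (squares) for the 10 genes, in log2(intensity + 16), at 8 h (left) and 1 h (right). Dashed lines are the medians of all 18605 genes for each comparison. Both comparisons share the untreated arrays, and at 1 h all 10 squares lie left of their dashed line, with GCLM farthest at -0.73. The median of tested genes for methanol at 1 h, not drawn, was -0.21, and squares lie on both sides of it.

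Most of these genes read higher at 8 h than at 1 h, though none passed the test. In the fit over 3 agents, 8 h against 1 h was 0.50 for NQO1, 0.37 for TXNRD1 and 0.37 for GCLM, and 9 of the 10 genes were above 0, all but SLC7A11 at -0.23. The median over the 10 was 0.20, beside -0.04 over all 18605 genes, and over the 4 tested genes it was 0.19 beside 0.10 over all tested genes. The lowest adjusted p of the 10 was 0.148, for NQO1 in the limma fit of all genes (SE 0.18), and 3 of 10 (NQO1, TXNRD1 and GCLM) had an unadjusted p under 0.05. The background was 0.949% higher and 0.809% lower among tested genes, and 0.333% higher and 1.39% lower among all genes. Among the 4 tested genes TXNRD1 had adjusted p = 0.556, TXN (0.21) had 0.861, PRDX1 (0.18) had 0.879 and GPX4 (0.13) had 0.917.

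All 3 arrays at 8 h lay above all 3 at 1 h for NQO1, SRXN1 and TXNRD1, 3 of 10 genes, where the background was 5.03% of all genes. The second SRXN1 probeset did not show this. It read 206, 151 and 144 with LTD4, methanol and in untreated cells at 8 h, against 216, 280.3 and 140.4 at 1 h. SLC7A11 was the one gene of the 10 with all 8 h arrays below, where the background was 6.35%. After centring the 3 genes that lay above were GPX4, SRXN1 and TXN (background 8.06%), so NQO1 and TXNRD1 were no longer among them, while after quantile normalization they were again NQO1, SRXN1 and TXNRD1 (background 8%). SLC7A11 lay below after centring (background 9.44%) but not after quantile normalization (background 6.74%).

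The time difference was not the same in each agent. With LTD4, 8 h minus 1 h was above 0 for 9 of the 10 genes, between -0.02 for SLC7A11 and 0.60 for NQO1, and the median was 0.29 beside 0.01 over all genes. With methanol it was above 0 for 9 of 10, between -0.25 for SLC7A11 and 0.71 for GCLM, and the median was 0.39 beside 0.12. In untreated cells it was above 0 for 5 of 10, between -0.41 for SLC7A11 and 0.31 for NQO1, and the median was -0.05 beside -0.21. Over tested genes alone the medians were 0.12 with LTD4, 0.33 with methanol and -0.15 in untreated cells. GCLM thus stood at 0.38 with LTD4, 0.71 with methanol and 0.01 in untreated cells. Relative to the median of all genes, 9, 8 and 9 of the 10 were above with LTD4, methanol and untreated, and no interaction was testable with 1 array per group.

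**Figure D3:**
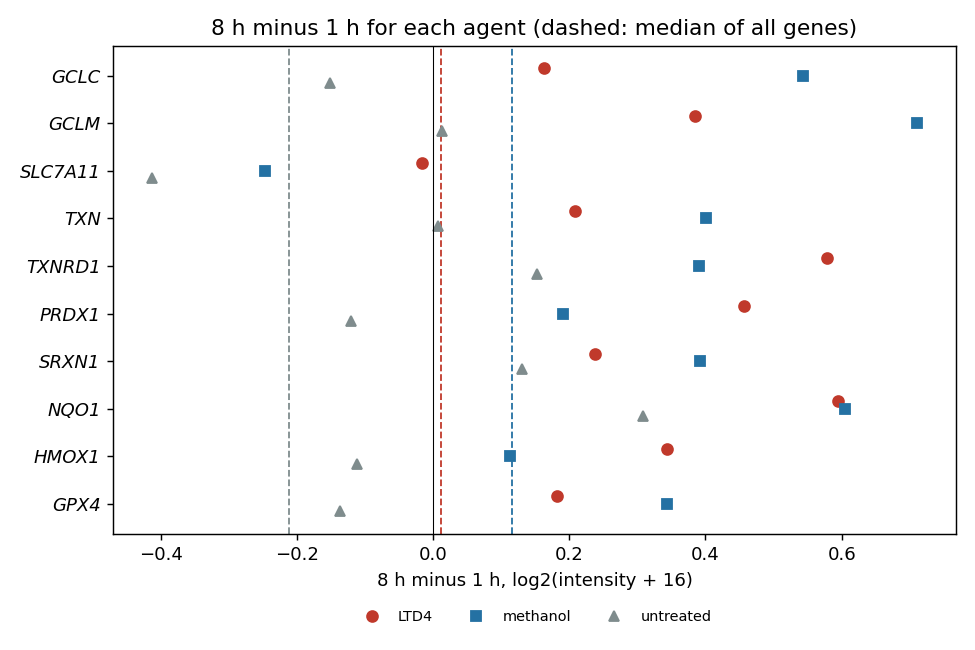
Difference of 8 h minus 1 h, in log2(intensity + 16), for the 10 genes with LTD4 (circles), with methanol (squares) and in untreated cells (triangles), with dashed lines at the medians of all 18605 genes. SLC7A11 is below 0 in all 3, NQO1 is above 0.3 in all 3, and GCLM is at 0.71 with methanol but 0.01 in untreated cells.

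**Figure D4:**
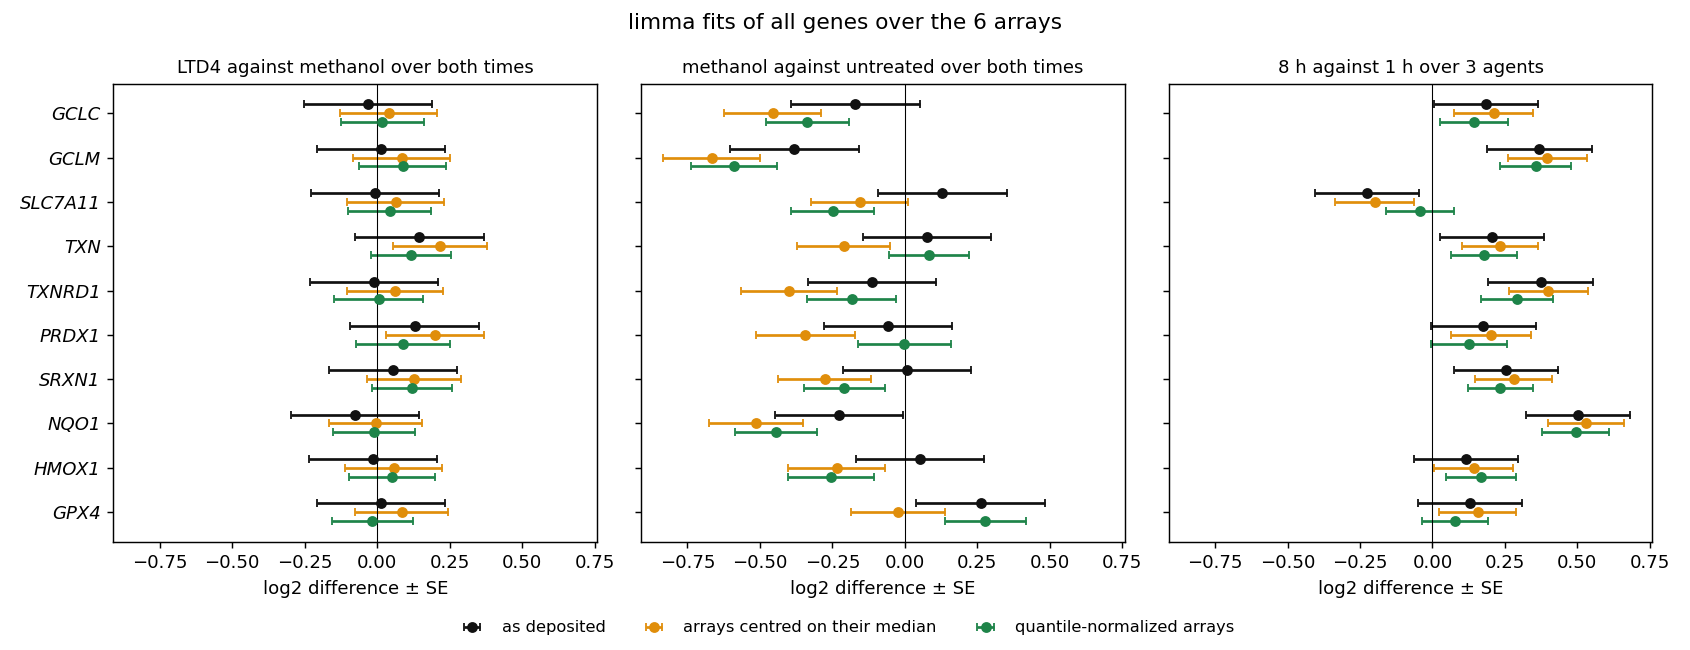
Log2 differences with SE from limma fits of all 18605 genes over the 6 arrays, for LTD4 against methanol, methanol against untreated and 8 h against 1 h, as deposited (black), with arrays centred on their median (orange) and after quantile normalization (green). For methanol against untreated the choice moves GCLM between -0.38, -0.67 and -0.59, and for 8 h against 1 h the 3 estimates of NQO1 stay between 0.49 and 0.53.

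TXNRD1 had the widest range over the arrays of the 4 tested genes after centring, 0.56 on the log2 scale, against 0.35 for PRDX1, 0.31 for TXN and 0.28 for GPX4. The 5 genes whose profile was most like that of TXNRD1 across the 6 arrays were SYNCRIP (r = 0.98), TMPRSS11E (0.98), TMEM109 (0.97), NDC1 (0.97) and NAA10 (0.97). With so few arrays, 40 of the 3583 other tested genes had r over 0.9, and the arrays share their agents and times.

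The neighbouring redox genes were taken as 7 lists, with 123 genes on the array and 55 tested. LTD4 against methanol called none of the 55, as deposited or with centred arrays. As deposited, 1 gene passed in the other fits of tested genes, RBX1, part of the ligase that, with KEAP1 and CUL3, marks NRF2 for degradation. It read 2625 with LTD4, 2316 with methanol and 1130.3 in untreated cells at 8 h, and 2049 with LTD4, 2136 with methanol and 1623 in untreated cells at 1 h. RBX1 rose with LTD4 against untreated by 0.77 (adjusted p = 0.026 in limma), and with methanol it stood at 0.71 (adjusted p = 0.0587). This 1 gene was 1.82% of the 55, where the background with LTD4 was 2.32% higher and 0.446% lower. With methanol 0 of the 55 passed, where the background was 1.9% higher and 0.363% lower. In the limma fit of all 18605 genes, also as deposited, RBX1 (adjusted p = 0.0235) and GSTM2 (0.64, adjusted p = 0.0462) of the 55 rose with methanol. SELENOT (-0.69, adjusted p = 0.0274) fell with methanol, and the background was 8.77% higher and 0.236% lower. With LTD4 RBX1 was again the only one of the 55 to pass, with a background of 4.72% higher and 0.226% lower. Both backgrounds are shares of all 18605 genes, not of the tested ones. Listed genes below the limit also passed there. Of the 32 other glutathione genes on the array, 5 rose with LTD4 and 6 with methanol, GSTM2 among the 6, and 0 fell with either. All 5 with LTD4 were below the limit. With arrays centred over all genes, 1 of the 32 rose in each comparison. The background there was 0.951% higher with LTD4 and 1.38% higher with methanol. NFE2L2 itself read 1447 with LTD4, 1715 with methanol and 1258 in untreated cells at 8 h, and 1500.2 with LTD4, 1161 with methanol and 1357 in untreated cells at 1 h. KEAP1 read 1599 with LTD4, 1493 with methanol and 1509 in untreated cells at 8 h, and 1210.0 with LTD4, 1125 with methanol and 1597 in untreated cells at 1 h. Neither passed in these fits.

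With arrays centred over tested genes, more of the 55 passed against untreated, and all calls below are from that fit. For methanol against untreated 3 rose and 6 fell, or 5.45% and 10.9% of the 55, where the background was 5.66% higher and 5.44% lower. Those that rose were RBX1 (0.67), GSTM2 (0.60), a glutathione transferase, and AKR1C1 (0.47), an NRF2-driven reductase. Those that fell were SELENOT (-0.73), TFRC (-0.66), the transferrin receptor, SELENOI (-0.59), ALOX15 (-0.52), a lipoxygenase, TKT (-0.45), of the pentose phosphate pathway, and UGDH (-0.42). For LTD4 against untreated 2 rose and 8 fell, where the background was 6.95% higher and 6.5% lower. RBX1 (0.72) and GLRX2 (0.61), a mitochondrial glutaredoxin, rose, and TFRC (-0.70), ALOX15 (-0.61), TXNIP (-0.58), the thioredoxin inhibitor, SELENOT (-0.56), SELENOI (-0.54), UGDH (-0.50), TKT (-0.50) and GSTP1 (-0.45) fell. The higher calls were lost with arrays centred over all genes. There 0 of the 55 rose and 7 fell with methanol, where the background was 1.38% higher and 1.76% lower. With LTD4 0 of the 55 rose and 5 fell, where the background was 0.951% higher and 0.795% lower. Both backgrounds are shares of all 18605 genes, whose dim and bright members shifted differently, whereas the 55 are all bright. The shares among tested genes in that fit were not computed, so these counts and backgrounds are not like for like. Listed genes below the limit, some of which also passed, are not counted here. There RBX1 stood at 0.42 (adjusted p = 0.197), GSTM2 at 0.35 (adjusted p = 0.257) and AKR1C1 at 0.23 (adjusted p = 0.470) with methanol, and RBX1 at 0.55 (adjusted p = 0.127) and GLRX2 at 0.44 (adjusted p = 0.263) with LTD4. SELENOT, SELENOI, TFRC and ALOX15 fell there too in both comparisons. The others that fell there were TKT, UGDH and AKR1C3 with methanol and TXNIP with LTD4. For 8 h against 1 h only LPCAT3 (-0.47), a phospholipid acyltransferase, fell, where the background was 1.7% higher and 2.68% lower, and 0 of the 55 passed with arrays centred over all genes. Within the 12 tested genes of other NRF2 targets the methanol calls were 1 higher and 2 lower, and the 9 other thioredoxin and peroxiredoxin genes had none.

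**Figure D5:**
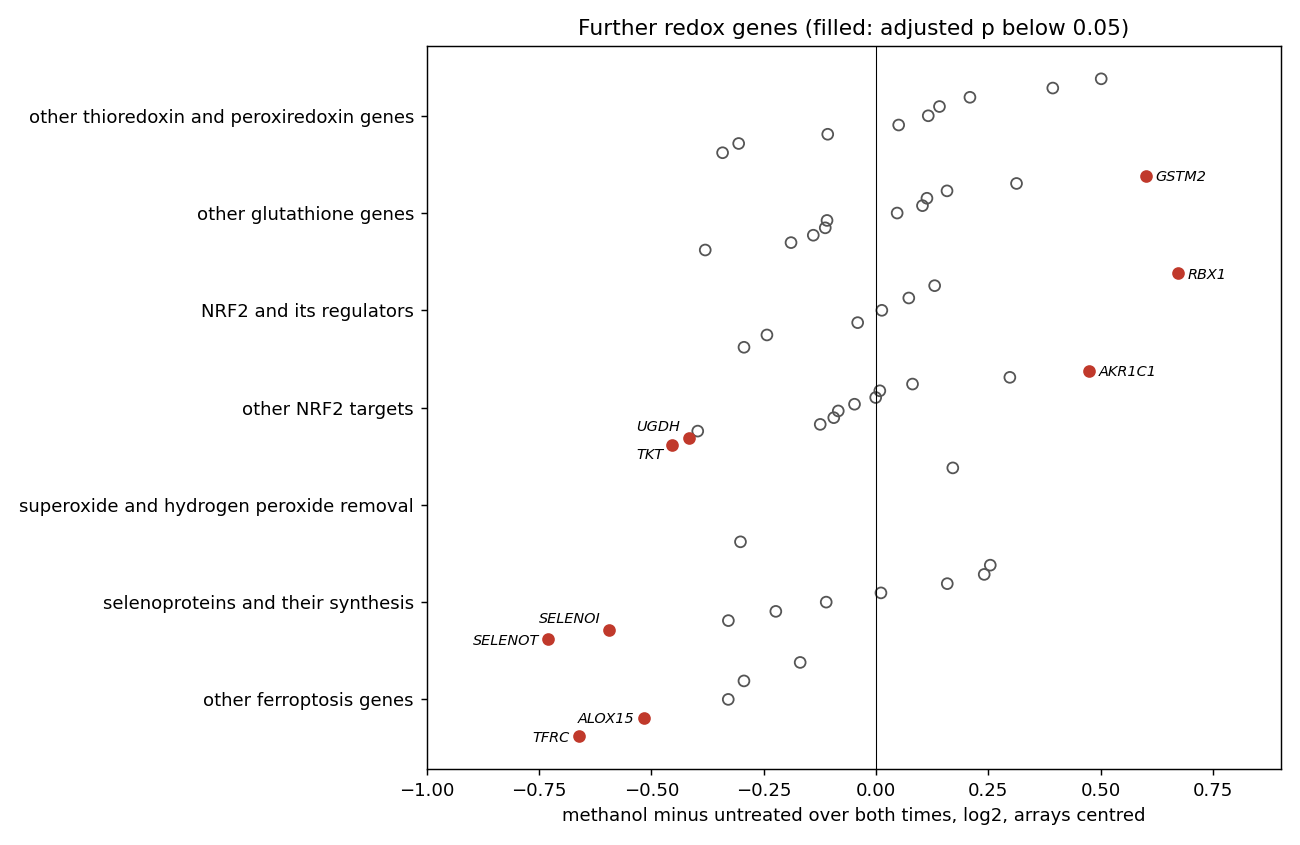
Methanol minus untreated over both times, log2 with arrays centred over tested genes, for the 55 tested genes of 7 redox lists, with 1 point per gene. Filled points passed at an adjusted p under 0.05. They stand on both sides of 0, with RBX1 at 0.67 and SELENOT at -0.73 at the ends.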

How the data were processed

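RNA of 6 groups was measured on 1 Affymetrix array each. The deposited tables hold linear intensity values per probeset, 33297 on each array, and the second deposited table was identical in all 199782 values. The Affymetrix Expression Console software and RMA were applied by the authors, per the submitters' processing notes, which give no version. The table's name carries PLIER, and which method made the intensities, whether arrays were normalized between them, and the genome build are not stated by any source at hand. Probesets with several gene symbols (1032) or none (12786) were left out. Of 19479 probesets with 1 symbol, 18605 genes were formed by keeping the brightest of each gene. Values were taken as log2(intensity + 16) and tested with limma 3.58.1 in R 4.3.3 (lmFit and eBayes, agent and time, Benjamini-Hochberg over all genes fitted, threshold 0.05). Other steps used Python 3.11.15 with pandas 2.3.3. As no group has a replicate, the fit has 2 residual degrees of freedom. Its spread, which may be technical, mixes array error with any difference between times or agents. As deposited, with or without the filter, the prior degrees of freedom of eBayes were infinite, so all genes shared 1 spread. An SE there is not specific to its gene. After centring or quantile normalization of all 6 arrays the prior was 7.99 to 11.8, and the spread differed by gene. The p-values of these fits therefore rest on unlike spreads. The genes, lists and tests were chosen with earlier results of these data known. The genes that could be named were the 10, in each wider list every gene called in a fit and up to 3 more with the greatest difference for methanol against untreated and 3 for 8 h against 1 h, and the 5 genes most like the tested gene of widest range. Alternatives were offsets of 1 and 64, no filter or a filter on the mean, all probesets of a gene, quantile normalization, centring, eBayes trend and robust, a 1.5-fold limit, the second deposited table and each array left out. Every combination of these was added after seeing the data: no filter with centring, quantile normalization or an array left out, and the 1.5-fold limit with no filter, centring or quantile normalization. The number of arrays limits the precision. Promoter sequences came from RefSeq.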

Additional observations from a re-analysis of the deposited data

Results flagged for a closer look

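LTD4 minus methanol had opposite signs at 8 h and at 1 h for 8 of the 10 genes as deposited. For 6 of them, given here, each sign was also kept after centring arrays over tested genes. The median over all tested genes turned too, from 0.11 at 1 h to -0.10 at 8 h, and GCLM and GCLC turned the same way. The share of all genes with opposite signs was not computed. Signs were opposite under each scaling tried for 5 of the 10: TXNRD1, HMOX1, GCLM, GCLC and SLC7A11. The difference between the times rests on 4 single arrays and was not tested. The effect at 8 h minus the effect at 1 h was 0.19 for TXNRD1, 0.23 for HMOX1, 0.23 for SLC7A11 and 0.27 for PRDX1, genes whose difference was above 0 at 8 h and below 0 at 1 h. PRDX1 was barely below 0 at 1 h (-0.0039) and stood at 0.012 with arrays centred over all genes, so its sign did not differ there. The effect at 8 h minus that at 1 h was -0.33 for GCLM and -0.38 for GCLC, the subunits of glutamate-cysteine ligase, whose difference was below 0 at 8 h and above 0 at 1 h. Single differences between -0.22 and 0.26 made up all 6.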

How the results depend on the processing

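No paired analysis was possible because each group holds 1 array and the labels give no replicate numbers. No member passed in any fit as deposited. Of 420 counts of members called under an alternative, 413 were the same and 7 moved. The 7 were 1 gene lower, GCLM, with methanol against untreated after centring without a filter, the same 1 without the methanol 8 h array, and 1 with LTD4 against untreated without the methanol 1 h or the methanol 8 h array. At 1 h past 1.5-fold without a filter they were 1 as deposited, 1 after quantile normalization and 2 (GCLM and GCLC) after centring. GCLM for methanol against untreated passed only after centring without a filter (-0.67), and it was not among the genes fitted where the limit was kept.

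The sign of LTD4 against methanol turned for TXNRD1 after quantile normalization (0.0048) and centring (0.062), for GPX4 after quantile normalization (-0.017), and after centring and quantile normalization for HMOX1 (0.057, 0.051), GCLC (0.040, 0.018) and SLC7A11 (0.063, 0.043), all without a filter. LTD4 against untreated turned after the same 2 settings for HMOX1 (-0.18, -0.20), SLC7A11 (-0.093, -0.21) and SRXN1 (-0.15, -0.087), and for PRDX1 after centring (-0.14). Methanol against untreated turned for HMOX1 (-0.23, -0.26), SLC7A11 (-0.16, -0.25) and SRXN1 (-0.28, -0.21), and after centring alone for TXN (-0.21) and GPX4 (-0.025). The cause was not tested. No 8 h against 1 h value of the probesets used turned. SRXN1, below the limit, was not refitted with both of its probesets. Its second probeset was lower at 8 h than at 1 h with LTD4 (206 against 216) and with methanol (151 against 280.3). In untreated cells it was slightly higher (144 against 140.4).

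With each array left out in turn, the lowest and highest values of genes whose sign turned were, for LTD4 against methanol, TXN -0.00031 to 0.29, TXNRD1 -0.16 to 0.14, HMOX1 -0.19 to 0.16, NQO1 -0.15 to 0.00014, GCLM -0.24 to 0.27, GCLC -0.30 to 0.24, SLC7A11 -0.16 to 0.15, SRXN1 -0.048 to 0.16, PRDX1 -0.082 to 0.34, GPX4 -0.15 to 0.17. For LTD4 against untreated they were TXNRD1 -0.29 to 0.043, HMOX1 -0.13 to 0.21, GCLC -0.45 to 0.050, SLC7A11 -0.035 to 0.28, SRXN1 -0.027 to 0.16, PRDX1 -0.15 to 0.29. For methanol against untreated they were TXN -0.073 to 0.22, TXNRD1 -0.28 to 0.052, HMOX1 -0.12 to 0.22, GCLC -0.44 to 0.10, SLC7A11 -0.011 to 0.27, SRXN1 -0.095 to 0.11, PRDX1 -0.28 to 0.16. Leaving out another single array turned SLC7A11 to 0.0081 for LTD4 against methanol and to -0.019 for LTD4 against untreated, and GCLC to 0.082 and SRXN1 to -0.083 for methanol against untreated. Over the 36 alternatives of each fit, counts of genes called were 6 to 2967 higher and 2 to 519 lower for methanol against untreated (68 and 13 as reported), 11 to 2016 and 4 to 563 for LTD4 against untreated (83 and 16), 0 to 179 and 0 to 367 for 8 h against 1 h (34 and 29), and 0 to 14 and 0 to 12 for LTD4 against methanol (0 and 0).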
